A study of Homo sapiens with 40 samples.

Results

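The amyloid precursor protein APP, its relative APLP2 and 5 genes for proteins that bind or traffic with them (APBA1, APBB1, APBB2, CLSTN1 and LRP8) were followed as alternatively spliced genes in cells whose RNA polymerase II elongates slowly, quickly or at the usual rate. All rows of the 5 deposited exon tables that carry the Ensembl identifier of 1 of these genes were taken, which gave 70 of 35638 rows. They describe 25 events, each an exon within a given pair of flanking splice sites, and 23 distinct exons. The 7 genes are among 6976 with at least 1 row. The list was assembled with results of these tables in view: exons of CLSTN1 and LRP8 had been chosen by their large decreases in E1126G on RNA-seq, that of APBB2 by its decrease in H1106Y on RASL-seq and that of APBA1 by its decrease in E1126G on RASL-seq. For E1126G and H1106Y, values and calls are therefore given as a description without a p-value. Adjusted p-values are given for R749H. In each assay R749H is set against the same WT values as the other mutants, so its changes in these 4 exons, in the assay each was chosen on, are not independent of that choice and lean toward a fall; they too are given without a p-value.

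The cells were HEK293 Flp-in T-REx, a human embryonic kidney line with 1 site for an inducible transgene. Every group expressed an α-amanitin-resistant large subunit of polymerase II (Rpb1) from a doxycycline-induced construct, with the substitution R749H, H1106Y or E1126G or with no substitution (WT), and every group was induced for 12 to 16 h and then kept in α-amanitin for 42 h to block the cell's own enzyme. R749H and H1106Y are known as slow and E1126G as a fast form. RNA-seq had 2 libraries each of R749H, E1126G and WT, and RASL-seq, in which pairs of probes are ligated across selected junctions and sequenced, had 3 libraries each of R749H, H1106Y, E1126G and WT. The labels call the RNA-seq replicates biological but do not say whether they came from separate cultures or whether each line was 1 clone. The authors deposited 1 value per genotype and event, so no spread between libraries, depth or overlap of groups can be given, and the tables hold no expression level with which to check the line against its markers.

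APP is a single-pass membrane protein that is cut by secretases, and the amyloid-β peptide comes from one of these routes. APP and APLP2 both can carry an extracellular Kunitz protease inhibitor (KPI) domain that is encoded by 1 cassette exon, and neurons mostly make APP without it. The cytoplasmic tails bind adaptors with phosphotyrosine-binding domains, among them APBA1 (X11α or Mint1), APBB1 (Fe65) and APBB2 (Fe65L1). CLSTN1 (calsyntenin-1) links vesicles that can carry APP to kinesin light chain, and LRP8 (ApoER2) is a receptor for reelin and apolipoprotein E whose tail binds adaptors of the same kind. Many cassette exons in this family are used differently in neurons and other cells.

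Inclusion is 100 times the inclusion reads over all reads of an event, computed from the deposited ratios, and a log2 change is that of the ratio of inclusion to exclusion reads in a mutant over WT. All levels and log2 changes given here are those of the authors' deposited tables or follow from them. An event is called when its deposited p-value is under 0.05 after Benjamini-Hochberg adjustment for every event in the same table. Positions are given in GRCh37 as the files list them, 1-based. Genes are as the tables assign them, and whether an exon is coding was not looked up, since no annotation of that build was used here.

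In slow R749H cells the KPI exons of both precursor genes were included more and short exons of CLSTN1, APLP2 and LRP8 less. In fast E1126G cells each of these exons lay on the same side of the same WT values, though not every change was called. In R749H on RNA-seq, 7 of the 24 member events were called, 3 higher and 4 lower, against 15.1% of all events, 7.07% higher and 8.04% lower. On RASL-seq 6 of 7 were called, 2 higher and 4 lower, against 44.1% of all events, 24% higher and 20.1% lower. In E1126G cells 4 of 23 RNA-seq events were called, 1 higher and 3 lower, where 6.48% of all events were, 2.2% higher and 4.27% lower. On E1126G RASL-seq 6 of 8 were called, 2 higher and 4 lower, where 47.5% of all events were called, 13.9% higher and 33.6% lower. H1106Y, measured by RASL-seq, had 3 of 8 called, all 3 lower, where 61.9% of all events were called, 23.7% higher and 38.2% lower. Since the members were picked partly for such changes, nothing about the family as a whole is read from these counts. The median log2 change of the member events was 0.25 in R749H and -0.24 in E1126G on RNA-seq, while over all events it was -0.0048 in R749H and -0.08 in E1126G. On RASL-seq the member medians were -1.78 in R749H, -0.76 in H1106Y and -1.44 in E1126G, and over all events they were 0.05 in R749H, -0.33 in H1106Y and -0.37 in E1126G.

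**Figure D1:**
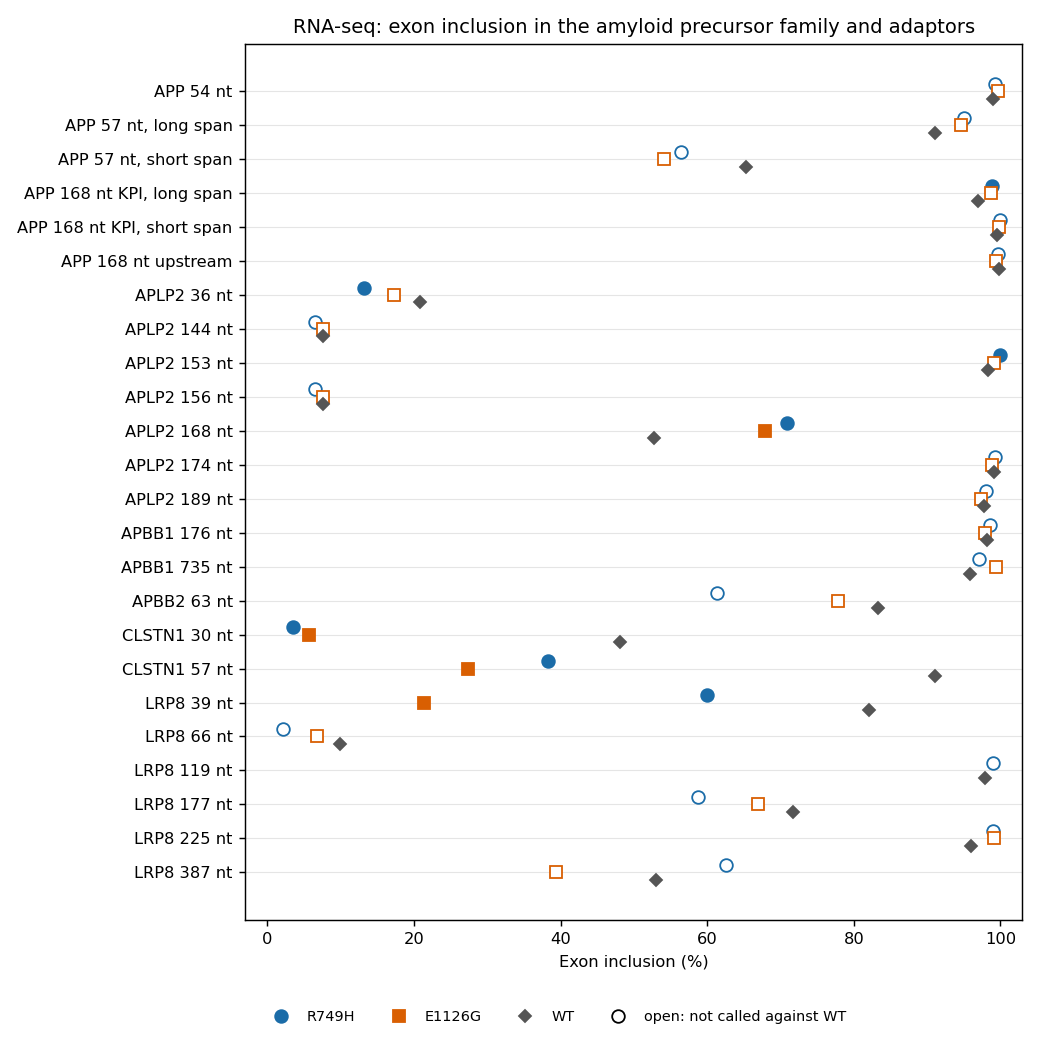
Exon inclusion (%) on RNA-seq for 24 events of 6 genes, each named by gene and exon length, in R749H (circles), E1126G (squares) and WT (diamonds) cells; each point is the authors' 1 value per genotype, and open symbols mark events not called against WT. Long and short span are explained with the APP results. The 30-nt and 57-nt exons of CLSTN1 and the 39-nt exon of LRP8 lie left of WT in both mutants, and the 168-nt exon of APLP2 lies right of it.

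The KPI exon of APP, 168 nt on the minus strand of chromosome 21 (27372330 to 27372497), was nearly always included and was skipped still less in R749H. Its long-span event joins the exons on either side of both this exon and the next one (27354791 to 27394155), so skipping there removes the KPI exon together with the exon after it. In the authors' deposited RNA-seq tables skipping was 1.19% in R749H and 1.28% in E1126G, against 3.06% in WT. The R749H rise in inclusion had a log2 change of 1.39 (adjusted p = 0.010), and the E1126G change of 1.28 was not called. In the authors' deposited RASL-seq tables skipping was 0.422% in R749H, 1.59% in H1106Y and 1.37% in E1126G, against 2.25% in WT. Inclusion rose in R749H by a log2 of 2.44 (adjusted p = 4.4e-15), and E1126G, with a log2 change of 0.72, was also called. H1106Y, at 0.51, was not. All mutants stood on the same side of WT in both assays, but the mutants of an assay share 1 WT value and are not independent in this. The short-span event, in which the KPI exon alone is skipped (27369732 to 27394155), had skipping of 0.11% in R749H and 0.192% in E1126G, against 0.52% in WT, on RNA-seq, and was not called in either mutant (R749H adjusted p = 0.14).

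The next APP exon, 57 nt (27369675 to 27369731), encodes a stretch with similarity to the OX-2 antigen and was the APP exon with intermediate inclusion. Measured between the KPI exon and the exon after it, its RNA-seq inclusion in the authors' deposited tables was 56.4% in R749H and 54.1% in E1126G, against 65.3% in WT. On RASL-seq it was 63.6% in R749H, 66.7% in H1106Y and 59.6% in E1126G, against 76.9% in WT. Every mutant value lay below WT, whose value the mutants of an assay share, but none of these 5 differences was called (R749H adjusted p = 0.18 on RNA-seq and 0.32 on RASL-seq). Measured against skipping together with the KPI exon, its long-span inclusion was 95.1% in R749H and 94.7% in E1126G, against 91.1% in WT, also not called (R749H adjusted p = 0.18). The long-span events of the KPI and 57-nt exons are measured against the same skipping junction, so they are not independent.

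A 54-nt APP exon (27277336 to 27277389), whose skipping is known to create an attachment site for chondroitin sulfate, was close to full inclusion throughout. In the authors' deposited RASL-seq tables its inclusion was 98.7% in R749H, 97.6% in H1106Y and 97.7% in E1126G, against 96.5% in WT. It rose in R749H (log2 change 1.49, adjusted p = 8.1e-06) and was called higher in E1126G (0.65), but not in H1106Y (0.57). On RNA-seq it was 99.3% in R749H and 99.7% in E1126G, against 98.9% in WT, and was not called (R749H adjusted p = 0.46). Another 168-nt exon of APP, nearer the start of the gene (27484296 to 27484463), was included at 99.2% to 99.8% in all groups that had a row and was called in none.

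The KPI exon of APLP2 stood near the midpoint in WT and shifted by more percentage points than that of APP. It is also 168 nt long (plus strand of chromosome 11, 129993507 to 129993674). In the authors' deposited RNA-seq tables its inclusion was 70.9% in R749H and 67.9% in E1126G, against 52.7% in WT. It rose in R749H by a log2 of 1.13 (adjusted p = 8.4e-05) and was called higher in E1126G at 0.93. A 153-nt exon (130005458 to 130005610) was skipped in 0.0568% of reads in R749H and 0.93% in E1126G, against 1.72% in WT, in the authors' deposited tables. Its span (130003624 to 130010292) also covers the next exon, so both are absent when it is skipped. Inclusion rose in R749H by a log2 of 4.94 (adjusted p = 7.3e-07), over 1.66 percentage points, and E1126G, at 0.90, was not called.

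The exon after it in APLP2, 36 nt (130007151 to 130007186), corresponds to the 54-nt exon of APP in that its absence is known to create a chondroitin sulfate site. Unlike the APP exon it was mostly skipped, with inclusion of 13.1% in R749H and 17.2% in E1126G, against 20.8% in WT, in the authors' deposited RNA-seq tables. It fell in R749H (log2 change -0.80, adjusted p = 0.029), and the E1126G change of -0.34 was not called. The other 4 APLP2 events were not called in either mutant. A pair of exons of 156 and 144 nt that share a span and carry the same values were included at 6.56% in R749H and 7.58% in E1126G, against 7.61% in WT. Forms of 174 and 189 nt, which start at the same base and end at different ones, lay between 97.3% and 99.3% in all groups. No RASL-seq row of APLP2 was analysed here.

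Of the adaptors that bind the APP tail, APBA1 and APBB2 had short exons called lower in every RASL-seq comparison. The 33-nt exon of APBA1 (minus strand of chromosome 9, 72073072 to 72073104) was included at 50% in R749H, 30% in H1106Y and 34.5% in E1126G, against 84.7% in WT, in the authors' deposited RASL-seq tables. The log2 change was -2.47 in R749H, -3.69 in H1106Y and -3.39 in E1126G, each of them called. APBA1 had no RNA-seq row among those analysed here.

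The 63-nt exon of APBB2 (minus strand of chromosome 4, 40937094 to 40937156) was included at 49.0% in R749H, 19.8% in H1106Y and 47.6% in E1126G, against 76.7% in WT, on RASL-seq in the authors' deposited tables. The log2 change was -1.78 in R749H, -3.73 in H1106Y and -1.86 in E1126G, each of them called. RNA-seq gave 61.3% in R749H and 77.8% in E1126G, against 83.3% in WT, neither called (R749H log2 change -1.66, adjusted p = 0.25). The R749H log2 change was close to that of RASL-seq, but without a call. APBB1, measured on RNA-seq in exons of 176 and 735 nt (chromosome 11, 6424877 to 6425052 and 6431857 to 6432591), had inclusion of 95.9% to 99.4% in all groups and no call. Its largest log2 change was 2.78 for the 735-nt exon in E1126G, where inclusion was 99.4%, against 95.9% in WT.

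**Figure D2:**
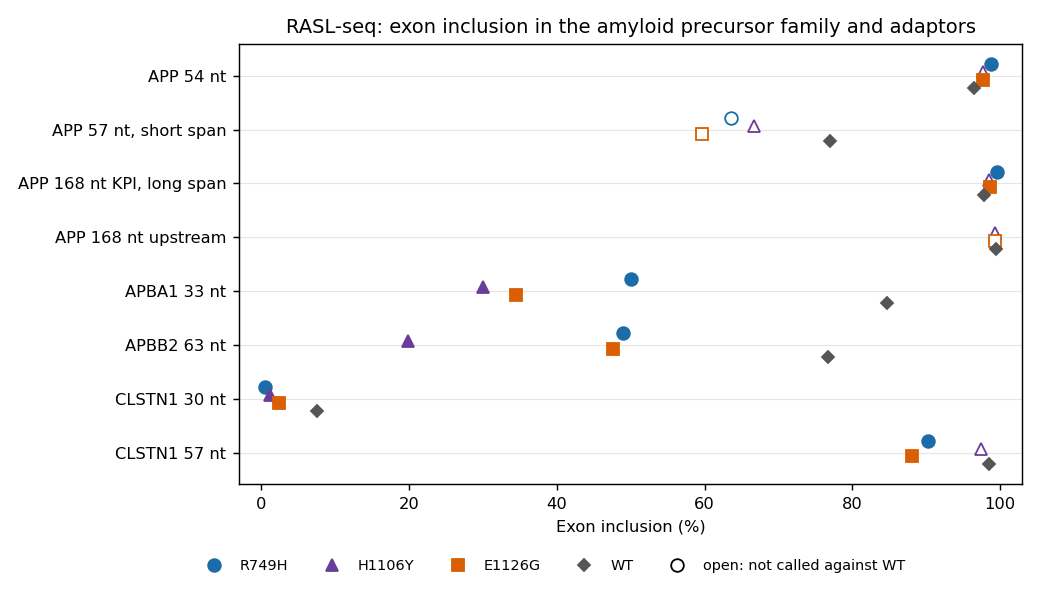
Exon inclusion (%) on RASL-seq for 8 events of 4 genes, in R749H (circles), H1106Y (triangles), E1126G (squares) and WT (diamonds) cells; each point is the authors' 1 value per genotype, and open symbols mark events not called against WT. The exons of APBA1 and APBB2 lie left of WT in all mutants, while the 57-nt exon of CLSTN1 in H1106Y, at 97.5%, stays next to WT at 98.5%.

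CLSTN1, the kinesin cargo adaptor, had 2 short exons that were both called lower in R749H in both assays. The 57-nt exon (minus strand of chromosome 1, 9797556 to 9797612) was included at 38.2% in R749H and 27.4% in E1126G, against 91.1% in WT, in the authors' deposited RNA-seq tables. Its log2 change in R749H was -4.04, a called event at rank 84 of 14358 events by size of change in percentage points. RASL-seq gave higher levels throughout, 90.2% in R749H, 97.5% in H1106Y and 88.1% in E1126G, against 98.5% in WT. R749H fell there (log2 change -2.83, adjusted p = 3.0e-18), and E1126G, at -3.15, was also called. H1106Y, at -0.77 and just past the threshold, was not called. Levels of a junction depend on its probes in RASL-seq, so inclusion is compared within an assay only.

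The 30-nt exon of CLSTN1 (9816539 to 9816568) was included at 3.49% in R749H and 5.75% in E1126G, against 48.2% in WT, in the authors' deposited RNA-seq tables. The log2 change was -4.68 in R749H (adjusted p = 4.6e-11) and -3.93 in E1126G, which was called. On RASL-seq the same exon stood at 0.546% in R749H, 1.23% in H1106Y and 2.43% in E1126G, against 7.53% in WT. It fell in R749H (log2 change -3.89, adjusted p = 8.4e-07), with H1106Y at -2.71 and E1126G at -1.71, both called.

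LRP8, the reelin and apolipoprotein E receptor, had 6 events on RNA-seq (minus strand of chromosome 1), of which 1 was called. Its 39-nt exon (53738276 to 53738314) was included at 60% in R749H and 21.4% in E1126G, against 82.1% in WT, in the authors' deposited RNA-seq tables. The log2 change was -1.61 in R749H, called just under the threshold, and -4.07 in E1126G, also called. The 387-nt exon (53742364 to 53742750), which encodes ligand-binding repeats, was included at 62.5% in R749H and 39.4% in E1126G, against 53.0% in WT, and was not called (R749H adjusted p = 0.70). The 177-nt exon (53715052 to 53715228), which encodes an insert of the cytoplasmic tail, was at 58.7% in R749H and 67.0% in E1126G, against 71.7% in WT (R749H adjusted p = 0.31). A 225-nt exon for the O-glycosylated stretch was at 98.9% in R749H and 99.2% in E1126G, against 96.0% in WT (R749H adjusted p = 0.27). The remaining LRP8 events, of 66 and 119 nt, were not called either, with R749H log2 changes of -2.36 (adjusted p = 0.13) and 1.17 (adjusted p = 0.73). For the 119-nt exon no E1126G row was analysed here.

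**Figure D3:**
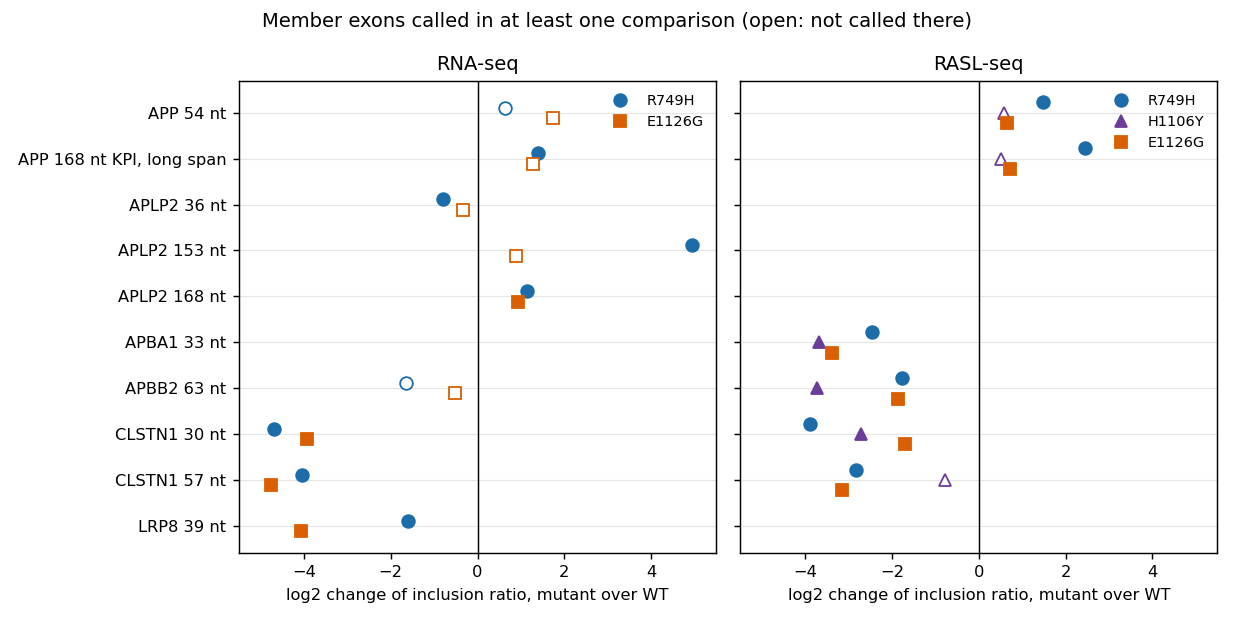
Log2 change of the ratio of inclusion to exclusion reads, mutant over WT, for the 10 member exons called in at least 1 comparison, on RNA-seq (left) and RASL-seq (right); filled symbols are called and open ones are not. The KPI exons of APP and APLP2, the 54-nt exon of APP and the 153-nt exon of APLP2 lie right of 0, and the exons of APBA1, APBB2, CLSTN1 and LRP8 and the 36-nt exon of APLP2 left of it.

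The lowered members were the shorter exons. Of the 6 lowered exons, those of APBA1, APBB2 and LRP8 and the 57-nt exon of CLSTN1 were put on the list for their decreases, and the counts include the calls they were chosen on. The 18 calls with lower inclusion fell on 6 exons of 30 to 63 nt, and the 8 calls with higher inclusion fell on 4 exons of 54 to 168 nt. The WT inclusion of the lowered exons ran from 7.53% to 98.5% and that of the raised ones from 52.7% to 98.3%. Over all called events of R749H on RNA-seq, 74.6% of those up to 63 nt were lower, against 48.1% of longer ones. The same shares were 87.6% and 58.3% in E1126G on RNA-seq. On RASL-seq they were 58.8% and 41.0% in R749H, 64.2% and 60.9% in H1106Y, and 86.0% and 64.9% in E1126G. The length of 63 nt is that of the longest lowered member and was set after its value was seen, so these shares describe the tables and test nothing.

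**Figure D4:**
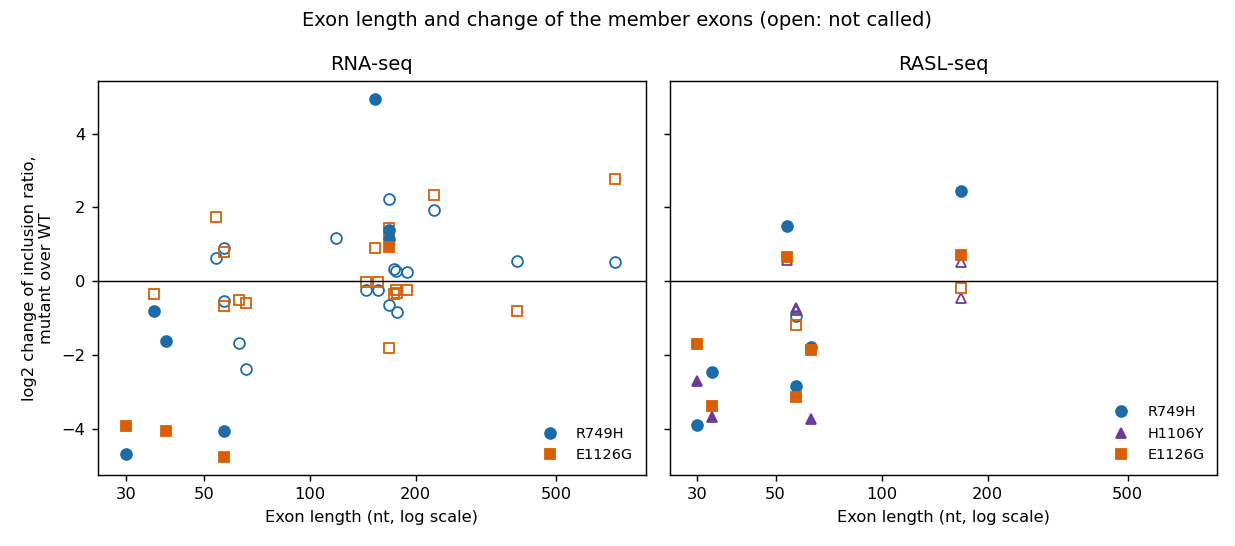
Exon length (nt, log scale) against the log2 change of the inclusion ratio, mutant over WT, for every member event on RNA-seq (left) and RASL-seq (right) in R749H (circles), H1106Y (triangles) and E1126G (squares); filled symbols are called. Filled symbols below 0 lie at 30 to 63 nt, and those above 0 at 54 to 168 nt.

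Most member exons had a length that leaves a reading frame unshifted if the exon is coding. The length was a multiple of 3 for 21 of the 23 exons (91.3%), while 43.8% of all 15189 exons in the tables had such a length. The exceptions were the 176-nt exon of APBB1 and the 119-nt exon of LRP8. Every called member exon had a length that is a multiple of 3, which is near the 91.3% of all member exons. The share among all called exons is not given here, so nothing is read from this about called exons. Member exons ran from 30 to 735 nt with a median of 153 nt, against a median of 109 nt for all exons. None of the 23 exons was listed under another gene as well, and none of the 2605 R749H and 2615 E1126G introns in the deposited intron tables lay inside the stretch of a member gene that its exon events cover.

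The 2 assays used different libraries and gave the same sign of change for each member event measured in both, 6 of 6 in R749H and 7 of 7 in E1126G. Over all events measured in both, the sign was the same for 74.0% in R749H and 73.7% in E1126G. The member events include the 57-nt exon of CLSTN1 and the exon of APBB2, listed for their large decreases. Such a choice favours agreement in sign, so the member counts and these shares are not a like comparison. An approximate test of the difference in log2 change between assays, which takes each error from its deposited p-value, called no member event in R749H (0 of 6) or E1126G (0 of 7), against 4.62% and 1.44% of all events. At an unadjusted p under 0.05 it had 2 of 6 in R749H and 2 of 7 in E1126G, and a difference that it misses may still exist. The share of all events at that unadjusted threshold is not given here, so these counts have nothing to be set against. The 57-nt exon of CLSTN1, chosen on its E1126G RNA-seq value, had a log2 change in E1126G of -4.76 on RNA-seq and -3.15 on RASL-seq, an order that such a choice favours.

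Differences between mutants were tested in the same approximate way, and as each of them involves a comparison that supplied members, they are given as sizes and calls. Where an exon was chosen on 1 of the values compared, its difference is not a test and both log2 changes are given alone. On RNA-seq the difference between R749H and E1126G was called for 1 of 23 member events, against 1.74% of all events: the 153-nt exon of APLP2, with log2 changes of 4.94 in R749H and 0.90 in E1126G (difference 4.05 ± 1.04, implied SE). Skipping of that exon was near the floor, at 0.0568% in R749H and 0.93% in E1126G, against 1.72% in WT, at unknown depth. Its call was lost at an adjusted p under 0.01. The test ignores that both comparisons share WT, and with an allowance for the shared WT error 1013 of all 13236 events were called in place of 230. The 39-nt exon of LRP8, chosen on its E1126G value, had log2 changes of -1.61 in R749H and -4.07 in E1126G. On RASL-seq R749H differed from E1126G in 2 of 7 events (33.8% of all events), the KPI exon of APP by 1.71 ± 0.36 and the 30-nt exon of CLSTN1 by -2.18 ± 0.87. The 54-nt exon of APP differed by 0.84 ± 0.40 and was called with the allowance for shared WT error but not without it. Between H1106Y and E1126G the count was 2 of 8 (49.2% of all events), the 57-nt exon of CLSTN1, with a difference of 2.37 ± 0.47, and the APBB2 exon, chosen on its H1106Y value, with log2 changes of -3.73 in H1106Y and -1.86 in E1126G. Between the slow mutants R749H and H1106Y it was 3 of 7 (41.5% of all events). The KPI exon of APP was higher in R749H than in H1106Y by 1.93 ± 0.41, the 57-nt exon of CLSTN1 was lower, with a difference of -2.06 ± 0.48. The third was the APBB2 exon, with log2 changes of -1.78 in R749H and -3.73 in H1106Y. Both counts with H1106Y include this exon through the value it was chosen on. They are not a like comparison with the shares of all events. The 54-nt exon of APP differed by 0.92 ± 0.45 and was called with the allowance for shared WT error but not without it.

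Other genes of the pathway were read from 4 lists of relatives and partners. Their counts stand beside the shares of all events called, 15.1% in R749H and 6.48% in E1126G on RNA-seq, and 44.1% in R749H, 61.9% in H1106Y and 47.5% in E1126G on RASL-seq. Relatives and further adaptors (APBA2, CASK, NUMB, KLC1 and others) had 36 events in R749H RNA-seq, 6 called higher and 2 lower, and 37 in E1126G, 1 higher and 4 lower. On RASL-seq 3 of their 9 events were higher and 2 lower in R749H, 3 of 9 higher and 5 lower in H1106Y, and 2 of 10 lower in E1126G. The E1126G RASL-seq share was under that of all events. The largest change among them on RNA-seq was in a 138-nt exon of TM2D1, a membrane protein reported to bind amyloid-β, with inclusion of 86.2% in R749H, against 15.8% in WT, in the authors' deposited table. On RASL-seq it was in a 69-nt exon of the scaffold kinase CASK, a partner of APBA1, at 25% in R749H, 56.9% in H1106Y and 33.1% in E1126G, against 23.3% in WT, called in H1106Y alone of the 3 comparisons.

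The secretase genes had few events. None of 16 RNA-seq events in R749H or 15 in E1126G was called, and on RASL-seq 1 of 4 was lower in R749H, 2 of 3 were lower in H1106Y and 0 of 4 were called in E1126G. At an unadjusted p under 0.05 there were 0 in R749H and 0 in E1126G on RNA-seq, and 1 in E1126G on RASL-seq. The largest of these RASL-seq changes was small, an exon of the metalloprotease ADAM9 included at 99.6% in H1106Y, against 99.9% in WT, in the authors' deposited table. All called events of the receptor and trafficking genes were lower, 8 of 30 in R749H and 2 of 31 in E1126G on RNA-seq, and 3 of 7 in R749H, 4 of 7 in H1106Y and 3 of 7 in E1126G on RASL-seq. Over all events 8.04% in R749H and 4.27% in E1126G were lower on RNA-seq, and 20.1% in R749H, 38.2% in H1106Y and 33.6% in E1126G on RASL-seq. The 2 of 31 in E1126G are near the share of all events called. On RASL-seq the shares called, 42.9% in R749H, 57.1% in H1106Y and 42.9% in E1126G, were slightly under those of all events. On RNA-seq the calls fell on 3 genes in R749H and 2 in E1126G. On RASL-seq they fell on 2 genes in R749H, 2 in H1106Y and 3 in E1126G. The 24-nt exon of PICALM, a clathrin adaptor of endocytosis, showed the largest change of this list in both assays. Its RNA-seq inclusion was 51.7% in R749H and 19.5% in E1126G, against 75.1% in WT, in the authors' deposited tables, and its RASL-seq inclusion was 61.9% in R749H, 56.0% in H1106Y and 36.8% in E1126G, against 75.2% in WT.

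Genes for clearance and binding of amyloid-β and for tau had 1 of 17 RNA-seq events called in R749H, lower, and 0 of 17 in E1126G, where 3 had an unadjusted p under 0.05. The called event was an 87-nt exon of MAPT, the gene of tau, included at 30.2% in R749H and 27.3% in E1126G, against 64.0% in WT, in the authors' deposited tables (R749H adjusted p = 0.012). The E1126G value was farther from WT but not called. On RASL-seq 1 of 5 was lower in R749H, 2 of 5 were higher in H1106Y, and 1 of 6 was higher and 1 lower in E1126G. In all 5 comparisons the share called was under that of all events. A 57-nt exon of RTN4, a reticulon of the endoplasmic reticulum, had the largest of these changes, with inclusion of 44.9% in R749H, 73.3% in H1106Y and 45.5% in E1126G, against 46.6% in WT, in the authors' deposited tables.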

How the data were processed

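The 5 exon tables and 2 intron tables give the authors' mutant-to-WT comparisons. Where a table's name has a code instead of a mutant it was read as R749H, since R749H samples list it in their labels. Per the file headers, each row gives the natural log of the WT inclusion ratio, the log2 change of that ratio and a p-value, all as deposited by the authors and not per library. TopHat 1.4.1 is named in the labels' protocols, and Bowtie 0.12.7, edgeR 3.7.17 and GRCh37 in the submitters' processing notes, without saying which table each made. The test behind the p-values, the counting rule and any filter were not found in those sources, so whether the spread between libraries entered them is unknown, as is the depth. The log bases and the sign were checked on the values: with them 62.8% to 95.6% of up to 2000 ratios per table were ratios of whole numbers with a denominator up to 300 (relative tolerance 1e-09), against at most 0.4% with base 2 for the WT ratio and 5.45% to 22.75% with the change read as WT over mutant. WT values were identical across the tables of an assay.

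Inclusion percentages, Benjamini-Hochberg adjustment over each table, the threshold of 0.05 and the differences between log2 changes were computed here with Python 3.11.15, numpy 2.4.6, pandas 2.3.3 and scipy 1.17.1, and tested on simulated data. The simulation drew its errors from the same implied errors that its test used, so it cannot check them. Of changes of log2 2 it recovered 23% in R749H and 21.5% in E1126G on RNA-seq. On RASL-seq it recovered 82% in R749H, 79.5% in H1106Y and 84.5% in E1126G. An RNA-seq event that was not called may therefore have changed. The difference tests assume normal errors implied by the p-values and treat comparisons as independent, although those of an assay share WT. Symbols came from the Ensembl identifiers (6848 of 6976 matched). The members, lists and tests were chosen with earlier results of these data known. Every member row is accounted for; events called in at least 1 table or measured in both assays were described with their values, and from each other list the called event with the largest change per assay was named. The 16 GRO-seq libraries are not analysed here. No exon sequence is printed, since no genome of this build was used here.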

Additional observations from a re-analysis of the deposited data

How the results depend on the processing

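No paired analysis was possible because the tables hold 1 value per genotype, and leaving out a library could not be run for the same reason. The alternatives change thresholds, adjustments, filters or errors and leave each log2 change as it is, so they bear on calls and not on directions. At an adjusted p under 0.01 the member calls of R749H on RNA-seq were 4 in place of 7, with APP (KPI), APLP2 (36 nt) and LRP8 (39 nt) lost, and they were also 4 with the Benjamini-Yekutieli adjustment. Over all R749H RNA-seq events the calls went from 2169 to 1368 at 0.01 and to 1153 with Benjamini-Yekutieli. Asking for a change of at least 10 points left 4 in R749H RNA-seq, 2 in R749H RASL-seq and 3 in E1126G RASL-seq. Over all events it left 1434 of 2169 calls, 376 of 991 and 414 of 1098, in the same order. With WT inclusion of 5% to 95% only, which drops the APP and CLSTN1 exons near full inclusion, 3 remained in R749H and 3 in E1126G on RASL-seq. Over all RASL-seq events 660 calls remained in R749H and 735 in E1126G. Counts of differences between mutants were small and moved easily. For R749H against E1126G on RNA-seq they were 0 at 0.01, 0 within the WT band and 2 with shared WT error removed. Over all events the counts were 116, 224 and 1013 in that order, in place of 230. The member added with shared WT error removed was the LRP8 exon, chosen on its E1126G value, so its call is not a test. On RASL-seq the member counts were 1 at 0.01 and 1 within the band for R749H against E1126G, 1 and 1 for H1106Y against E1126G, and 1 within the band for R749H against H1106Y. Over all events R749H against E1126G had 490 at 0.01 and 499 within the band, in place of 720. For the comparisons with H1106Y no such counts over all events are given here, so nothing is read from their member counts. The APBB2 exon can enter those member counts through the H1106Y value it was chosen on. Counting each exon once changed no call. The depth is unknown, so no precision can be given for levels near 0% or 100%, such as that of the 153-nt exon of APLP2. Its skipping of 0.0568% in R749H may rest on very few reads. Ratios of whole numbers in lowest terms do not give the depth, and few reads may lie behind intermediate levels too.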
